A study of Mus musculus with 21 samples.

Results

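The genes described here are 4 members of the SLC1 family of sodium-coupled amino acid transporters, Slc1a2, Slc1a3, Slc1a4 and Slc1a5, out of 23250 genes in the deposited table. They were found by matching the Ensembl identifiers of the table, without version, to mouse gene symbols. The family was selected on the levels of Slc1a2 in these same libraries, so differences of Slc1a2 between groups are given as a description and carry no test. Of the 4 members, 3 passed the filter on low counts, and Slc1a3 did not.

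The cells were macrophages grown for 7 days from C57BL/6J mouse bone marrow with GM-CSF, a growth factor for myeloid cells. The series text describes them as deficient in the mannose receptor (MR, encoded by Mrc1), and this holds for every group, the controls included. Mrc1 lay between 0 and 11 counts in the 21 libraries. The 7 groups of 3 libraries were untreated cells at 0 h, cells given FcMR for 4, 12 or 24 h, and cells given an isotype control for 4, 12 or 24 h. FcMR is a fusion of the human IgG1 Fc region with the extracellular region of the MR. Untreated cells at 4, 12 or 24 h were not analysed here, so in each comparison with untreated cells the time in culture and the added protein cannot be told apart. No label says that replicates came from separate mice, and p-values then measure only the spread between these libraries. Because RNA was taken from whole cultures, fewer cells of a type and less RNA per cell cannot be told apart.

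SLC1 proteins carry amino acids into cells, driven by the sodium gradient. Slc1a2 (EAAT2) and Slc1a3 (EAAT1) take up glutamate and are best known from astrocytes, where they clear the transmitter after its release. Slc1a4 (ASCT1) and Slc1a5 (ASCT2) exchange small neutral amino acids such as alanine, serine and cysteine, and Slc1a5 is a main route for glutamine. Glutamate and cysteine are building blocks of glutathione, which buffers oxidants in macrophages.

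In GENCODE M21 (build GRCm38), Slc1a2 (ENSMUSG00000005089.15) lies on chr2:102658659-102790784 on the plus strand and has 12 annotated transcripts. Slc1a3 (ENSMUSG00000005360.14) lies on chr15:8634124-8710764 on the minus strand. Slc1a4 (ENSMUSG00000020142.12) lies on chr11:20302180-20332713 on the minus strand and has 2 transcripts. Slc1a5 (ENSMUSG00000001918.17) lies on chr7:16781340-16798274 on the plus strand and has 8 transcripts. The spans of the annotated genes Gm13872 and Gm37310 overlap those of Slc1a2 and Slc1a3, with introns and both strands included. Whether they share transcript sequence, so that reads could have been assigned to either gene, was not examined.

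RefSeq promoter windows (GRCm38.p6) were found for 3 of the 4 members. The bases before the annotated starts of the 2 members below are shown because Slc1a2 and Slc1a4 had opposite patterns against untreated cells. The Slc1a2 bases are chr2:102706188-102706355 on the plus strand, which end where another annotated transcript begins. The Slc1a4 bases are chr11:20332714-20332963 on the minus strand, with capitals marking matches to a GC box (GGGCGG) or a CCAAT box (ATTGG) on either strand.
Slc1a2: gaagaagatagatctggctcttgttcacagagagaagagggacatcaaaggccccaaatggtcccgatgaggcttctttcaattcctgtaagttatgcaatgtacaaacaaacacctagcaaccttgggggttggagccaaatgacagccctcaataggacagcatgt
Slc1a4: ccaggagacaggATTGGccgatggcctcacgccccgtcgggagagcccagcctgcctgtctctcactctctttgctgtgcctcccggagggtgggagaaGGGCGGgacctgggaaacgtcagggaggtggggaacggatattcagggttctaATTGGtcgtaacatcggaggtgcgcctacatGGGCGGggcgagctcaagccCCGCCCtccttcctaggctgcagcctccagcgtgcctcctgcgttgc

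Over the 250 bases before the start, GC content was 44.8% for Slc1a2 and 64.8% for Slc1a4, with a median of 52.4% over 32851 windows of that length. The Slc1a4 window held 3 GC boxes, a motif found in 32.7% of all windows, and 2 CCAAT boxes, found in 33.8%. Both strands of the Slc1a2 window were searched for these 2 motifs, for the AP-1 site TGANTCA (6.75% of windows), the composite site TGATGNAA (3.45%), the E-box CACGTG (6.02%), TATAAA (12.4%), the STAT site TTCNNNGAA (7.02%) and the NF-kB site (5.93%). None of these letters was found in it. Values per gene do not show which start was used, and the RefSeq start of Slc1a2 at position 102706438 is inside the GENCODE gene.

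Levels are given as CPM, estimated counts scaled to a common library total, after TMM scaling, which adjusts library totals for composition. Totals ran from 5532225 to 66729533 counts, and the level that 3 counts would give ran from 0.0454 to 0.559 CPM. Macrophage and myeloid markers were present in all libraries (8 of 8 genes, summed level 20410 to 35840 CPM). Lyz2 (16640 to 30530 CPM) made up most of that sum, and Adgre1 (192.7 to 1719 CPM) and Itgam (365.8 to 1804 CPM) varied more. Dendritic cell markers had a summed level of 1332 to 1848 CPM. Itgax (853.2 to 1233 CPM) and Ccr7 (237.7 to 705.3 CPM) made up most of it, while Cd209a had 0 to 414 counts and Xcr1 2 to 109. Markers of T and B cells summed to at most 6.394 CPM and those of stromal cells to at most 4.389 CPM. By the numbers that open their titles, FcMR 12 h replicate 1 and isotype 4 h replicate 3 each stand within the run of the other's group. Their groups were taken from the titles, and results on the members at these times are also given without them.

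Slc1a2, the glutamate transporter, was at the edge of detection in untreated macrophages and highest after 12 and 24 h of FcMR. Untreated libraries held 6, 8 and 4 counts, or 0.426 ± 0.138 CPM (SD, n = 3). With FcMR, the libraries held 408, 932 and 164 counts at 4 h, 1440, 1201 and 2277 counts at 12 h, and 928, 3223 and 738 counts at 24 h. These FcMR counts correspond to 31.5 ± 3.19, 107.0 ± 3.10 and 101.3 ± 15.1 CPM (SD, n = 3 each). The level was therefore higher at 12 h than at 4 h in every library, while the libraries at 12 and 24 h overlapped.

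Slc1a2 was also above its untreated level in isotype libraries at 4 and 12 h. Libraries given the isotype control held 31, 19 and 44 counts at 4 h and 139, 45 and 416 counts at 12 h. At 24 h they held 9, 4 and 5 counts. The means were 4.33 ± 0.842, 6.90 ± 0.791 and 0.652 ± 0.227 CPM (SD, n = 3 each). All isotype libraries at 4 and 12 h lay above all untreated ones, and at 24 h the 2 groups overlapped.

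Ordered by mean CPM, the Slc1a2 groups ran from FcMR 12 h through FcMR 24 h, FcMR 4 h, isotype 12 h, isotype 4 h and isotype 24 h to untreated. Neighbours overlapped only between FcMR at 12 and 24 h and between isotype at 24 h and untreated. The ratio of mean CPM between FcMR and isotype was 7.28 (4 h), 15.5 (12 h) and 155 (24 h). From 12 to 24 h the isotype mean was 90.6% lower and the FcMR mean 5.33% lower, so the larger ratio at 24 h came with a lower isotype level and not with a higher FcMR level.

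**Figure D1:**
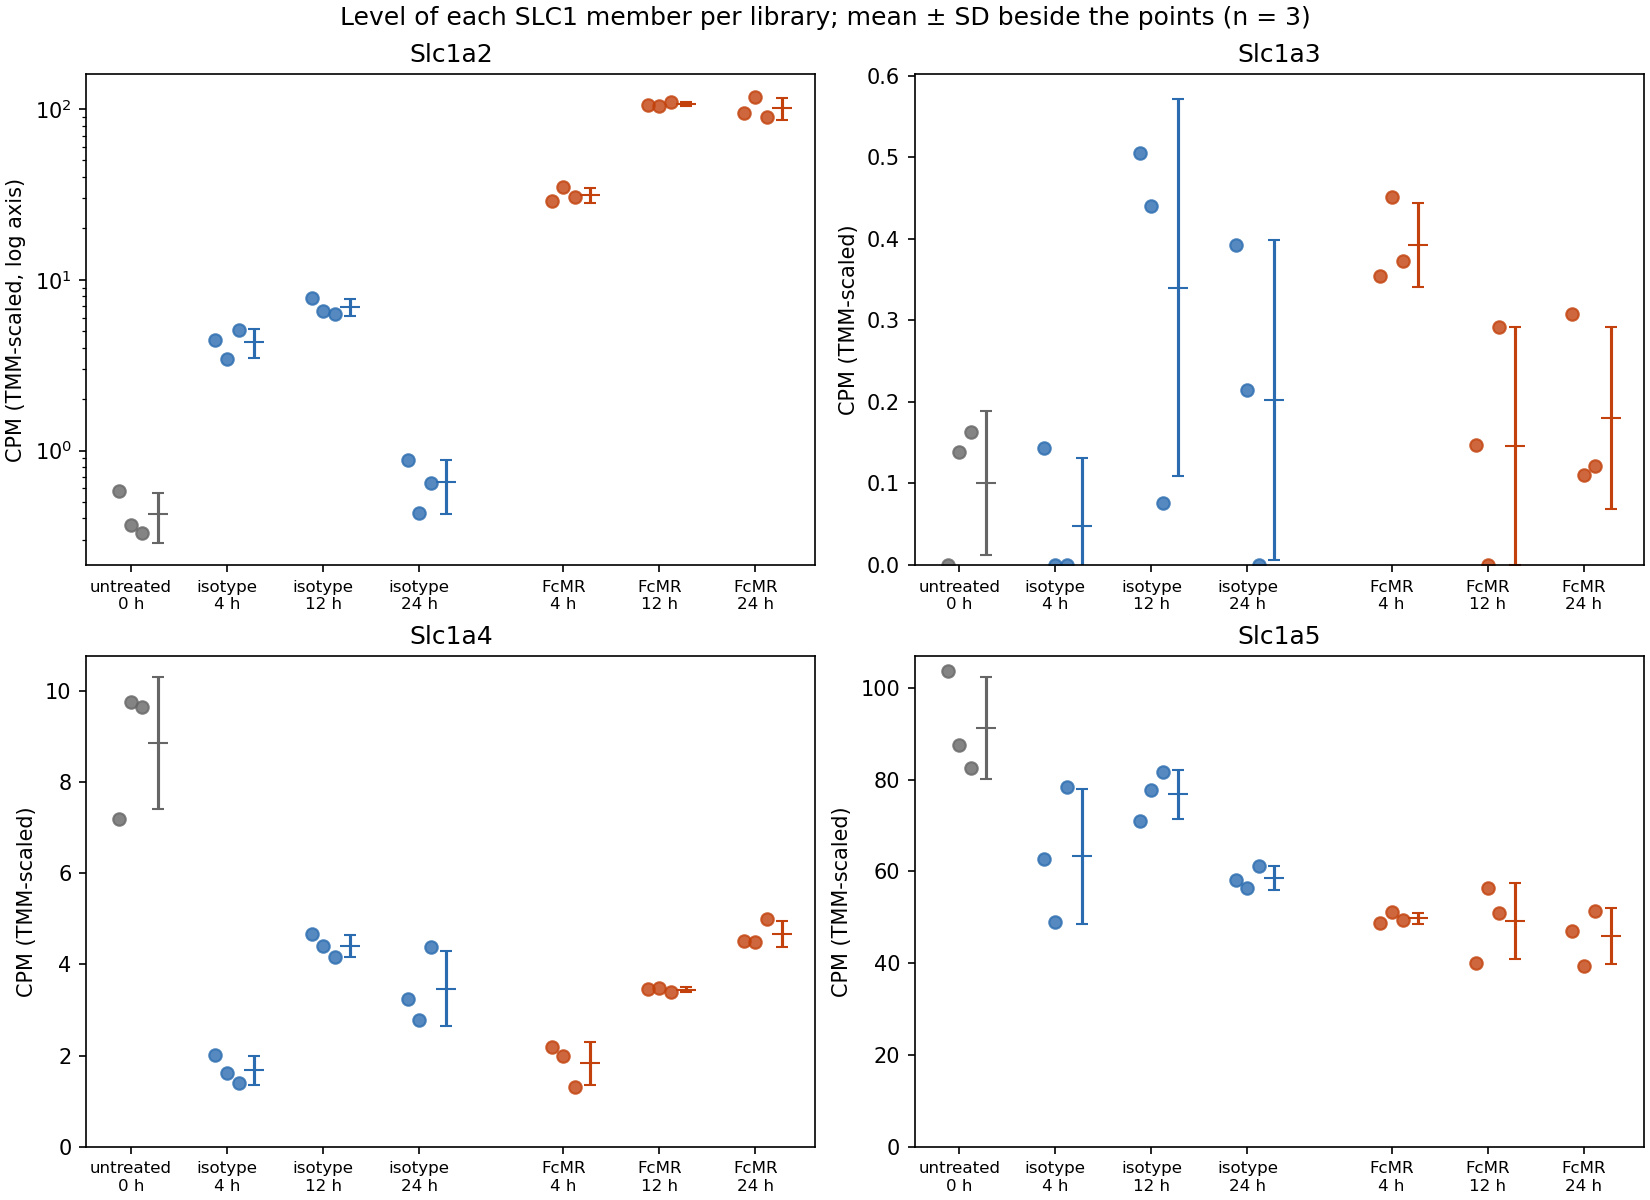
Level of each member in the 21 libraries, in TMM-scaled CPM (log axis for Slc1a2 only), with the mean ± SD of the 3 libraries beside the points. Slc1a2 is near 100 CPM only with FcMR at 12 and 24 h (means 107.0 and 101.3), Slc1a3 is under 0.6 CPM in every library, and Slc1a4 and Slc1a5 are highest in untreated cells (means 8.86 and 91.2).

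On the log2 scale the fitted difference of Slc1a2 between FcMR and isotype was 2.84 (SE 0.166) at 4 h, 3.96 (SE 0.155) at 12 h and 7.25 (SE 0.211) at 24 h. Against the shared untreated libraries it was 6.24, 8.0 and 7.92 for FcMR and 3.40, 4.05 and 0.67 for isotype, at 4, 12 and 24 h. Without the 2 libraries named above, the FcMR and isotype difference was 2.99 at 4 h and 3.97 at 12 h. The 0.67 for isotype at 24 h became 0.39 without isotype 24 h replicate 1. These values describe the pattern for which the gene was selected.

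The size of the Slc1a2 difference depended on which deposited table was used. In the authors' normalized table the ratio of means between FcMR and isotype was 8.70, 15.8 and 48.2 at the successive times. With limma on that table the log2 difference at 24 h was 5.52, against 7.25 from the estimated counts. The factor that turns a Slc1a2 count into a normalized value, relative to the factor shared by 2500 of 13034 genes without a 0 (19.2%), was 1.87 ± 0.238 in untreated and 2.29 ± 0.623 in isotype 24 h libraries. In the other 5 groups its mean was 0.669 to 0.851. The factor was close to 1 in every group for Slc1a4 (0.996 to 1.001) and between 0.841 and 1.13 for Slc1a5. The groups with 4 to 9 Slc1a2 counts are thus the ones raised by this factor, and whether that reflects transcripts of other lengths was not tested. The order of the 7 group means was the same on both scales, but the 2 overlaps seen in CPM were absent in the authors' normalized values. There FcMR at 24 h (800.5 to 902.5) lay below FcMR at 12 h (954.0 to 1211). Isotype at 24 h (16.1 to 19.4) lay above untreated (6.91 to 12.2). The ratio of the 24 h to the 12 h mean was 0.761 for FcMR and 0.250 for isotype, against 0.947 and 0.0945 in CPM.

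**Figure D2:**
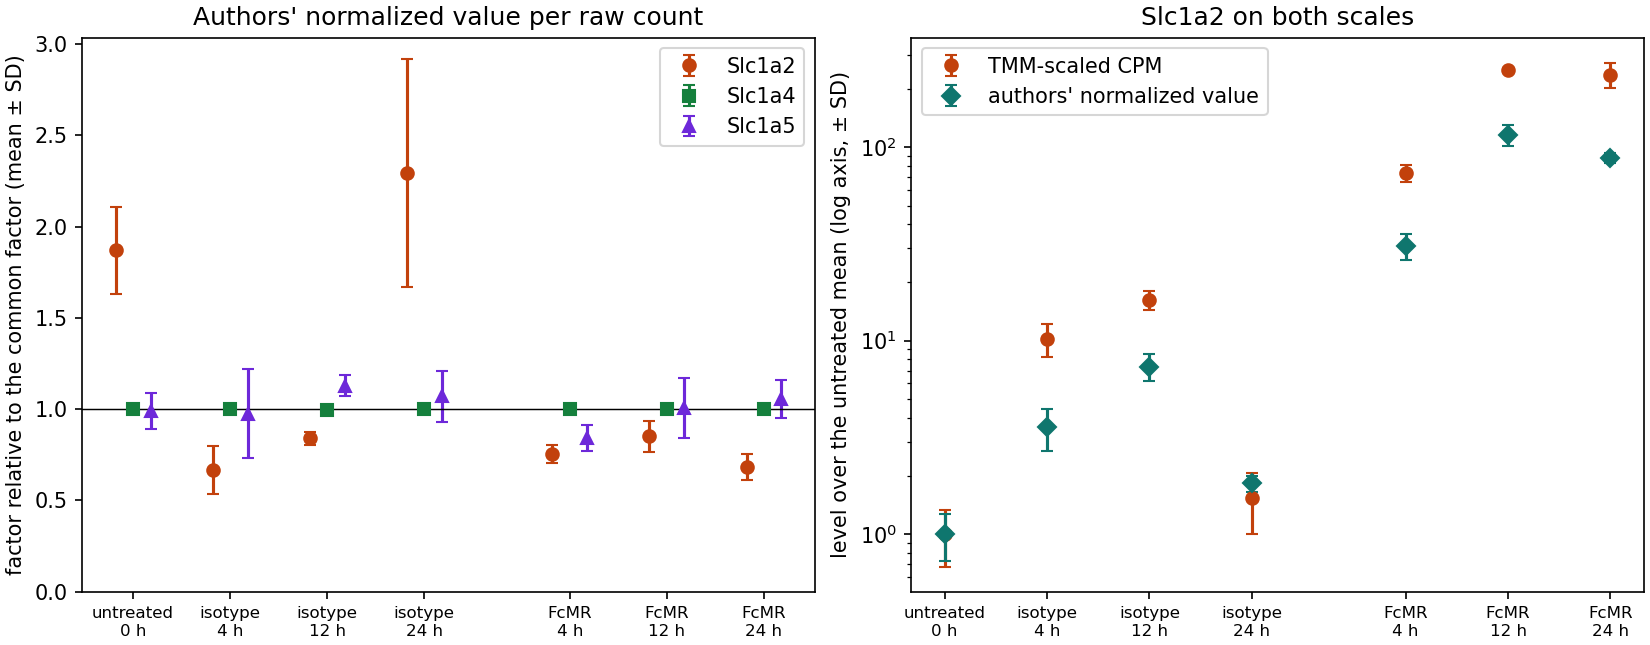
Left, the authors' normalized value per estimated count for 3 members, relative to the common factor (mean ± SD, n = 3), by group. Right, Slc1a2 over its untreated mean on both scales (log axis, ± SD): FcMR at 24 h is 237.8-fold above untreated in CPM and 88.1-fold in the authors' normalized values.

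Markers of astrocytes, the cell type for which Slc1a2 is best known, were given the same look. Of 7 astrocyte genes 6 were in the table, and their summed level was 12.0 to 12.8 CPM in untreated, 15.9 to 32.1 CPM in isotype and 18.1 to 43.0 CPM in FcMR libraries. Aldh1l1, a folate enzyme, made up most of it, with means from 9.32 CPM in untreated to 28.5 CPM in isotype 12 h and 23.8 CPM in FcMR 12 h libraries. Gfap, the astrocyte filament protein, had 11 counts in isotype 12 h replicate 1 and at most 1 count in any other library. Fabp7 had 2 to 139 counts per library (at most 10.2 CPM), Gja1 0 to 50 (at most 2.98 CPM) and Slc4a4 2 to 38 (at most 2.05 CPM). The water channel Aqp4 had 316 counts in FcMR 12 h replicate 3 and at most 3 in any other library. Slc1a2 in that replicate (110.6 CPM) was close to the other two of its group (105.7 and 104.9 CPM). The neutrophil list summed to 620.5 to 696.9 CPM in untreated, 369.0 to 1337 CPM in isotype and 181.4 to 542.4 CPM in FcMR libraries. Mmp8 (134.5 to 1310 CPM) and Ngp (9.14 to 291.1 CPM) made up most of that sum. Camp, Mpo, Ly6g and Elane reached at most 22.6, 8.45, 7.60 and 7.39 CPM. The mast cell and basophil list summed to 51.5 to 52.4, 16.9 to 36.6 and 19.03 to 38.03 CPM in the same order. The part of these lists in the results on the members was not tested.

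Slc1a3, the other glutamate transporter of the set, was barely detected. It had 0 to 12 counts per library, and its highest group mean was 0.393 ± 0.0516 CPM (SD, n = 3) with FcMR at 4 h, from 5, 12 and 2 counts. The isotype libraries at 4 h held 1, 0 and 0 counts, where a count of 0 allows up to 0.541 CPM (3 counts in the shallower of the 2). Each of the 7 groups overlapped its neighbour in the order of means. FcMR and isotype at 4 h, the first and last in that order, did not overlap (0.354 to 0.451 against 0 to 0.144 CPM). The level that a count of 0 allows is above all of these values. In an edgeR quasi-likelihood fit without the filter, the log2 difference between FcMR and isotype was 2.98 (SE 1.31, adjusted p = 0.217) at 4 h, -0.80 (adjusted p = 0.790) at 12 h and -0.32 (adjusted p = 0.935) at 24 h. A difference in Slc1a3 was thus not detectable at this depth. Slc1a1, a further glutamate transporter of the family, had 0 to 4 counts per library.

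Slc1a4, the exchanger of alanine, serine and cysteine, was lower in both treated arms than in untreated macrophages at every time. Untreated libraries held 7.19, 9.75 and 9.65 CPM. Isotype means were 1.68 ± 0.313 CPM at 4 h, 4.41 ± 0.246 CPM at 12 h and 3.47 ± 0.819 CPM at 24 h. FcMR means were 1.83 ± 0.467, 3.45 ± 0.0463 and 4.67 ± 0.287 CPM (SD, n = 3 each). No treated library reached the lowest untreated one.

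Against the shared untreated libraries, isotype Slc1a4 fell by 2.41 (SE 0.212), 1.01 (SE 0.181) and 1.36 (SE 0.190) on the log2 scale at 4, 12 and 24 h. The adjusted p-values were 7.11e-08, 0.000201 and 1.45e-05 (edgeR quasi-likelihood test, Benjamini-Hochberg over all 13468 genes tested, threshold 0.05). FcMR Slc1a4 fell by 2.21 (SE 0.196), 1.37 (SE 0.184) and 0.93 (SE 0.182), with edgeR adjusted p-values of 3.98e-08, 7.10e-06 and 0.000359. Calls of this kind were common: of all genes tested, 15.2%, 19.6% and 20.9% were called lower with isotype and 25.9%, 23.4% and 25.4% with FcMR, at 4, 12 and 24 h.

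Between FcMR and isotype, Slc1a4 was not called at any time. The log2 difference was 0.20 (95% interval -0.29 to 0.68) at 4 h, -0.35 (-0.74 to 0.04) at 12 h and 0.43 (0.02 to 0.84) at 24 h. The adjusted p-values were 0.629, 0.249 and 0.135 (edgeR quasi-likelihood). The FcMR and isotype libraries did not overlap at 12 h, where FcMR was lower, or at 24 h, where FcMR was higher. Neither of these differences was called, and how many of all genes show the same lack of overlap was not counted. Without FcMR 12 h replicate 1 and isotype 4 h replicate 3 the values were 0.07 (4 h) and -0.35 (12 h). Leaving out single libraries gave 0.07 to 0.38 at 4 h, and no filter gave 0.32. At 24 h the difference was called without isotype replicate 3 (0.63, edgeR adjusted p = 0.049). The test of whether the FcMR difference itself varied between the 3 times gave an adjusted p of 0.140 for Slc1a4 (edgeR), where 11% of all genes were called.

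In CPM, Slc1a5, the glutamine transporter, was lower in every FcMR and every isotype library than in every untreated one. In the authors' normalized values this held for FcMR but not for isotype. There isotype 4 h replicate 3 had 1154 and isotype 12 h replicates 2 and 3 had 1044 and 1176, beside 1375, 992.3 and 962.8 in untreated libraries. Even in CPM the highest isotype library at 12 h (81.6 CPM) was close to the lowest untreated one (82.5 CPM). Untreated libraries held 103.7, 87.5 and 82.5 CPM, from 1067, 1902 and 1009 counts. Isotype libraries held 62.8, 48.9 and 78.3 CPM at 4 h, 70.9, 77.8 and 81.6 CPM at 12 h and 58.1, 56.3 and 61.3 CPM at 24 h. FcMR libraries held 48.8, 51.1 and 49.4 CPM at 4 h, 40.1, 56.3 and 50.9 CPM at 12 h and 47.0, 39.3 and 51.5 CPM at 24 h. At 12 and 24 h every FcMR library was below every isotype library in CPM, while at 4 h isotype replicate 2 lay among the FcMR values. How many of all genes separate in this way was not counted. In the authors' normalized values FcMR and isotype libraries were separate at 12 h but not at 24 h. There FcMR 24 h replicate 3 (743.2) was above isotype 24 h replicate 2 (648.4).

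At 12 h Slc1a5 was lower with FcMR than with isotype by 0.65 on the log2 scale (SE 0.150, edgeR adjusted p = 0.00516), a mean 36.0% lower. Of all genes, 7.49% were called lower there. At 4 h the difference was -0.35 (95% interval -0.67 to -0.03, edgeR adjusted p = 0.124) and at 24 h -0.36 (95% interval -0.67 to -0.04, edgeR adjusted p = 0.114), neither of them called. Of all genes, 9.13% were called lower at 4 h and 9.44% at 24 h. With a correction for GC content both became called, at -0.41 (edgeR adjusted p = 0.00052) and -0.25 (edgeR adjusted p = 0.0155). That correction also raised the number of all genes called in either direction, from 2390 to 3750 at 4 h and from 2813 to 4142 at 24 h. The 4 h difference was also called without isotype 4 h replicate 2 (-0.47, edgeR adjusted p = 0.0407), and it was -0.17 without FcMR 12 h replicate 1 and isotype 4 h replicate 3 (edgeR adjusted p = 0.352). The 12 h call held without those 2 libraries (-0.52, edgeR adjusted p = 0.00756). The difference did not pass the test of varying between times (edgeR adjusted p = 0.574).

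Against the shared untreated libraries, Slc1a5 with FcMR fell by 0.87, 0.89 and 0.99 on the log2 scale at 4, 12 and 24 h (SE 0.150 to 0.151). The edgeR adjusted p-values were 0.000114, 7.85e-05 and 2.80e-05. With isotype it fell by 0.52 at 4 h (SE 0.150, edgeR adjusted p = 0.0116) and 0.64 at 24 h (SE 0.150, edgeR adjusted p = 0.00219), and the 12 h value of -0.25 was not called (edgeR adjusted p = 0.199). The isotype call at 4 h was lost without untreated replicate 1 (-0.42, edgeR adjusted p = 0.0657), and with only the 2 groups in the fit (edgeR adjusted p = 0.0717). On the authors' normalized table limma called neither isotype difference (adjusted p = 0.0725 at 4 h and 0.155 at 24 h). With the GC correction, the isotype value was -0.30 at 4 h (edgeR adjusted p = 0.00296), and 12 h was called as well (-0.29, edgeR adjusted p = 0.00227). The 12 h value was -0.06 on the authors' normalized table and -0.145 without untreated replicate 1 (edgeR).

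**Figure D3:**
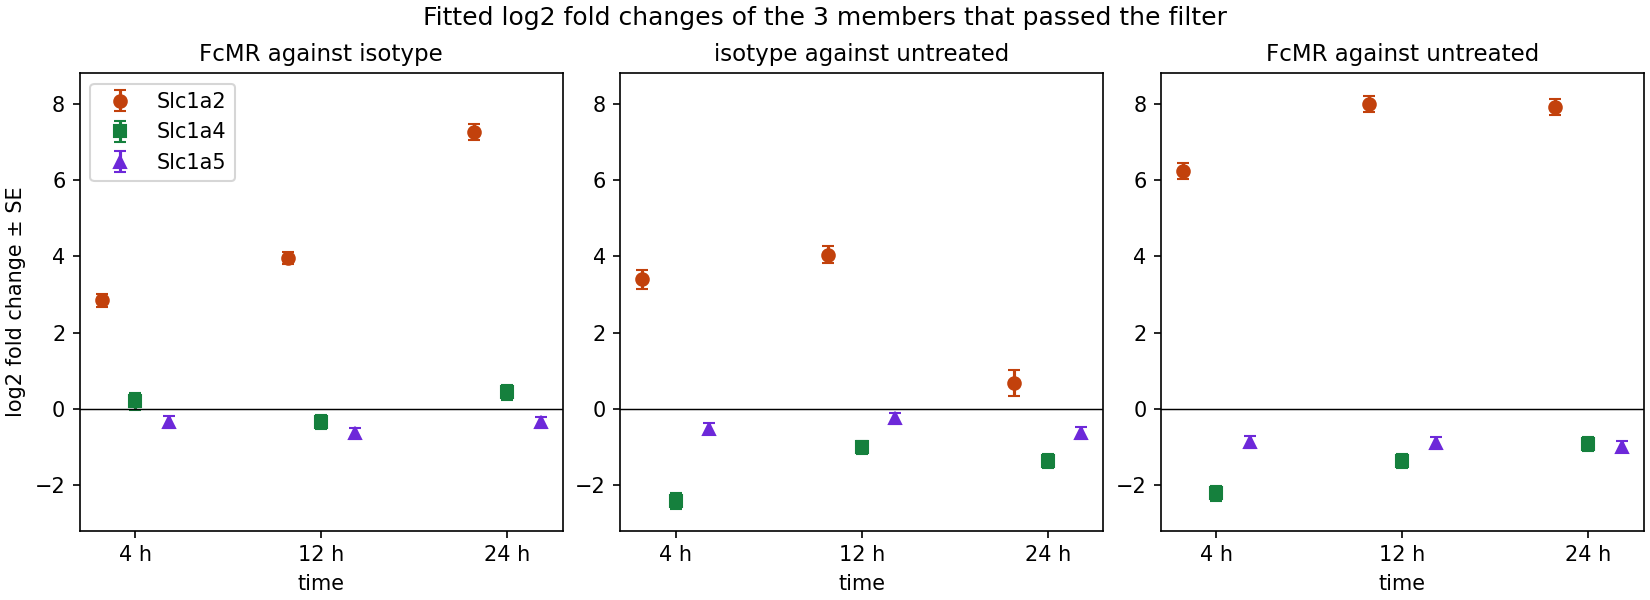
Fitted log2 fold changes (± SE) of the 3 members that passed the filter, by time, for FcMR against isotype and for each arm against the shared untreated libraries. Slc1a2 lies above 0 in all 9 comparisons (0.67 to 8.0), Slc1a5 lies below 0 in all 9, and Slc1a4 is below 0 only in the 6 against untreated cells and at 12 h between FcMR and isotype.

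Whether Slc1a2 or Slc1a5 had more RNA per length after FcMR depends on the length assumed. With the longest annotated transcript, Slc1a2 had 9.23 and Slc1a5 17.5 CPM per kb in FcMR 12 h libraries. With the median transcript length, the levels were 199 and 67.0 CPM per kb. In untreated libraries Slc1a5 was above Slc1a2 by both lengths (32.5 against 0.0367 CPM per kb with the longest, 124 against 0.791 CPM per kb with the median).

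Over the 21 libraries, the log2 CPM of Slc1a2 and Slc1a5 had a Pearson r of -0.703, Slc1a4 and Slc1a5 one of 0.451, and Slc1a2 and Slc1a4 one of -0.293. These values describe 21 libraries that share 7 groups. Among 10530 genes compared over the same libraries, the 5 with the highest r to Slc1a2 were Tma16 (0.983, a ribosome biogenesis factor), Dnase1l3 (0.972, a secreted DNase), Fpr2 (0.971, a formyl peptide receptor), Sod2 (0.970, mitochondrial superoxide dismutase) and Acsl1 (0.967, a long-chain acyl-CoA synthetase). By Spearman's rho they ranked 14, 4, 15, 9 and 2. All 5 had their highest mean in FcMR 12 h libraries and their lowest in untreated ones. Acsl1, for example, had a mean of 53.4 CPM untreated, 117 CPM with isotype at 24 h and 1150 CPM with FcMR at 24 h. For Slc1a4 the nearest were Got1 (0.930, cytosolic aspartate aminotransferase), Aldh18a1 (0.913, an enzyme of proline synthesis from glutamate) and Fam117b (0.899). For Slc1a5 they were Kcnn4 (0.954, a calcium-activated potassium channel), Tbc1d16 (0.952, a regulator of Rab proteins) and Sept9 (0.95, a septin).

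**Figure D4:**
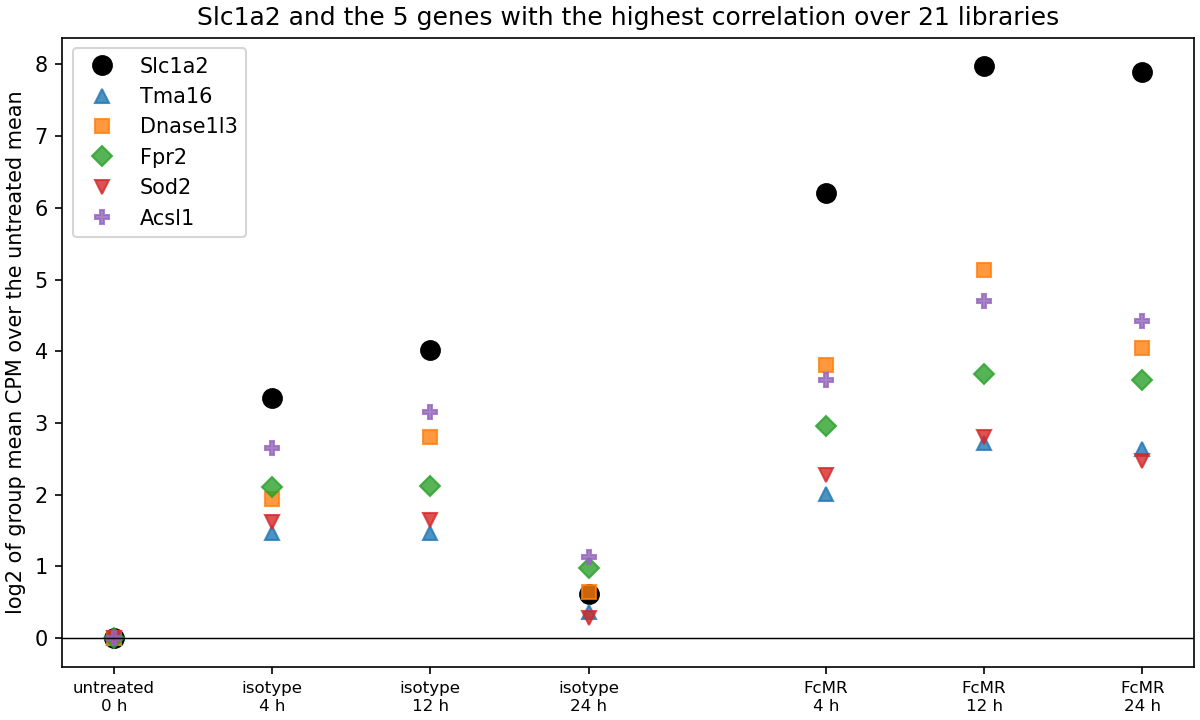
Group mean CPM over the untreated mean, on a log2 scale, for Slc1a2 and the 5 genes with the highest Pearson correlation to it over 21 libraries. All 6 are lower with isotype at 24 h than at 4 and 12 h and highest with FcMR at 12 h, and Slc1a2 spans the widest range of the 6.

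A gene next to Slc1a2 on the chromosome was also higher with FcMR than with isotype, at few counts. These neighbours were looked at after the Slc1a2 values were known. Pamr1, a secreted protein with a protease-like domain, ends 15618 bp before Slc1a2 on the same strand. It had 0, 2 and 1 counts in untreated libraries, 28, 45 and 5 with FcMR at 4 h, 15, 20 and 41 at 12 h and 11, 16 and 5 at 24 h. With isotype it had 5, 3 and 1 counts at 4 h, 4, 1 and 18 at 12 h and 0, 0 and 0 at 24 h. In CPM the FcMR means were 1.54 ± 0.543, 1.61 ± 0.460 and 0.776 ± 0.307 at 4, 12 and 24 h, and the isotype means at 4 and 12 h were 0.458 ± 0.310 and 0.215 ± 0.0635 (SD, n = 3 each). At 24 h the FcMR mean was at least 2.32-fold higher than 3 counts per isotype library (0.334 CPM). Pamr1 passed the filter on low counts through FcMR libraries, so no test of it is given. Cd44, a hyaluronan receptor 20357 bp on the other side and on the opposite strand, was higher by 0.54 at 4 h (SE 0.123, edgeR adjusted p = 0.00481) and was not called at 12 h (0.24) or 24 h (-0.10).

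Enzymes and carriers around glutamate were called in both directions at 4 and 24 h. Of 22 genes of glutamate and glutamine metabolism and glutathione synthesis, 18 were tested between FcMR and isotype. At 24 h 3 were called higher and 4 lower, where 11.4% and 9.44% of all genes were called. At 4 h 1 was called higher and 3 lower, beside 8.62% and 9.13% of all genes. At 12 h 0 were called higher and 3 lower, beside 8.61% and 7.49% (edgeR; 2 were higher at an unadjusted p below 0.05, and DESeq2 called 1). The list's median log2 difference was -0.215, -0.069 and -0.0141 at the 3 times, beside -0.0727, -0.017 and 0.00636 over all genes.

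At 24 h the called genes with the highest values were Gls2, a glutaminase (3.42 ± 1.19 CPM with FcMR, 1.07 ± 0.215 with isotype, log2 difference 1.68), Asns, asparagine synthetase (0.998), and Gclc, the catalytic subunit of the first enzyme of glutathione synthesis (0.88). The level of Gls2 was low, with isotype means of 0.767 and 0.558 CPM at 4 and 12 h. Whether FcMR libraries alone carried Gls2 through the filter on low counts was not checked, which limits its call. The lowest were Ggt5, which cleaves glutathione-related peptides (-0.74), Psat1, an enzyme of serine synthesis (-0.62), and Slc25a13, a mitochondrial aspartate and glutamate carrier (-0.59). Glul, glutamine synthetase, was lower with FcMR than with isotype by 0.35 at 4 h and 0.57 at 12 h (edgeR adjusted p = 0.0221 and 0.000459). The 24 h value of -0.04 was not called. From 4 to 24 h the mean of Glul went up in both arms, from 57.4 to 149.9 CPM with FcMR and from 73.0 to 153.7 CPM with isotype.

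Of 25 other amino acid transporters, 23 were tested, and 6, 5 and 6 were called higher at 4, 12 and 24 h, beside 8.62%, 8.61% and 11.4% of all genes. Called lower were 5, 5 and 5, beside 9.13%, 7.49% and 9.44%. Their median log2 difference was 0.119, 0.00844 and -0.144, beside -0.0727, -0.017 and 0.00636 over all genes. Slc7a2, a carrier of arginine and lysine, differed most: 3764 ± 358.3 CPM with FcMR against 1681 ± 74.1 with isotype at 4 h, and 2089 ± 249 against 219.8 ± 34.4 at 24 h (SD, n = 3 each). As with Slc1a2, its isotype mean was lower at 24 h than at 4 h. Its log2 difference was 1.16, 2.10 and 3.25 at the 3 times, with an edgeR adjusted p of 3.69e-12 at 24 h. Slc7a11, which exports glutamate in exchange for cystine, was higher with FcMR than with isotype by 0.73, 0.61 and 0.93 (edgeR adjusted p = 0.000548, 0.00223 and 3.26e-05). From 4 to 24 h the mean of Slc7a11 went down in both arms, from 2434 to 1337 CPM with FcMR and from 1464 to 703.5 CPM with isotype. Slc3a2, the partner subunit of Slc7a11, was higher with FcMR at 4 h (0.66, edgeR adjusted p = 0.00561) and was not called at 12 h (0.40) or 24 h (0.28).

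The glycine transporter Slc6a9 was higher at 24 h (1.78, edgeR adjusted p = 0.00404). The taurine transporter Slc6a6 (-0.70), the lysosomal amino acid carrier Slc36a1 (-0.55) and the neutral amino acid exchanger Slc7a8 (-0.48) were the lowest called at 24 h, although Slc7a8 had been called higher at 4 h (0.71). Slc7a5, a carrier of large neutral amino acids, was not called at any time (0.48, 0.21 and -0.32). Slc38a2, which like Slc1a5 carries glutamine, was lower with FcMR at 12 h (-0.48, edgeR adjusted p = 0.00479) and was not called at 4 h (-0.23) or 24 h (-0.17).

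**Figure D5:**
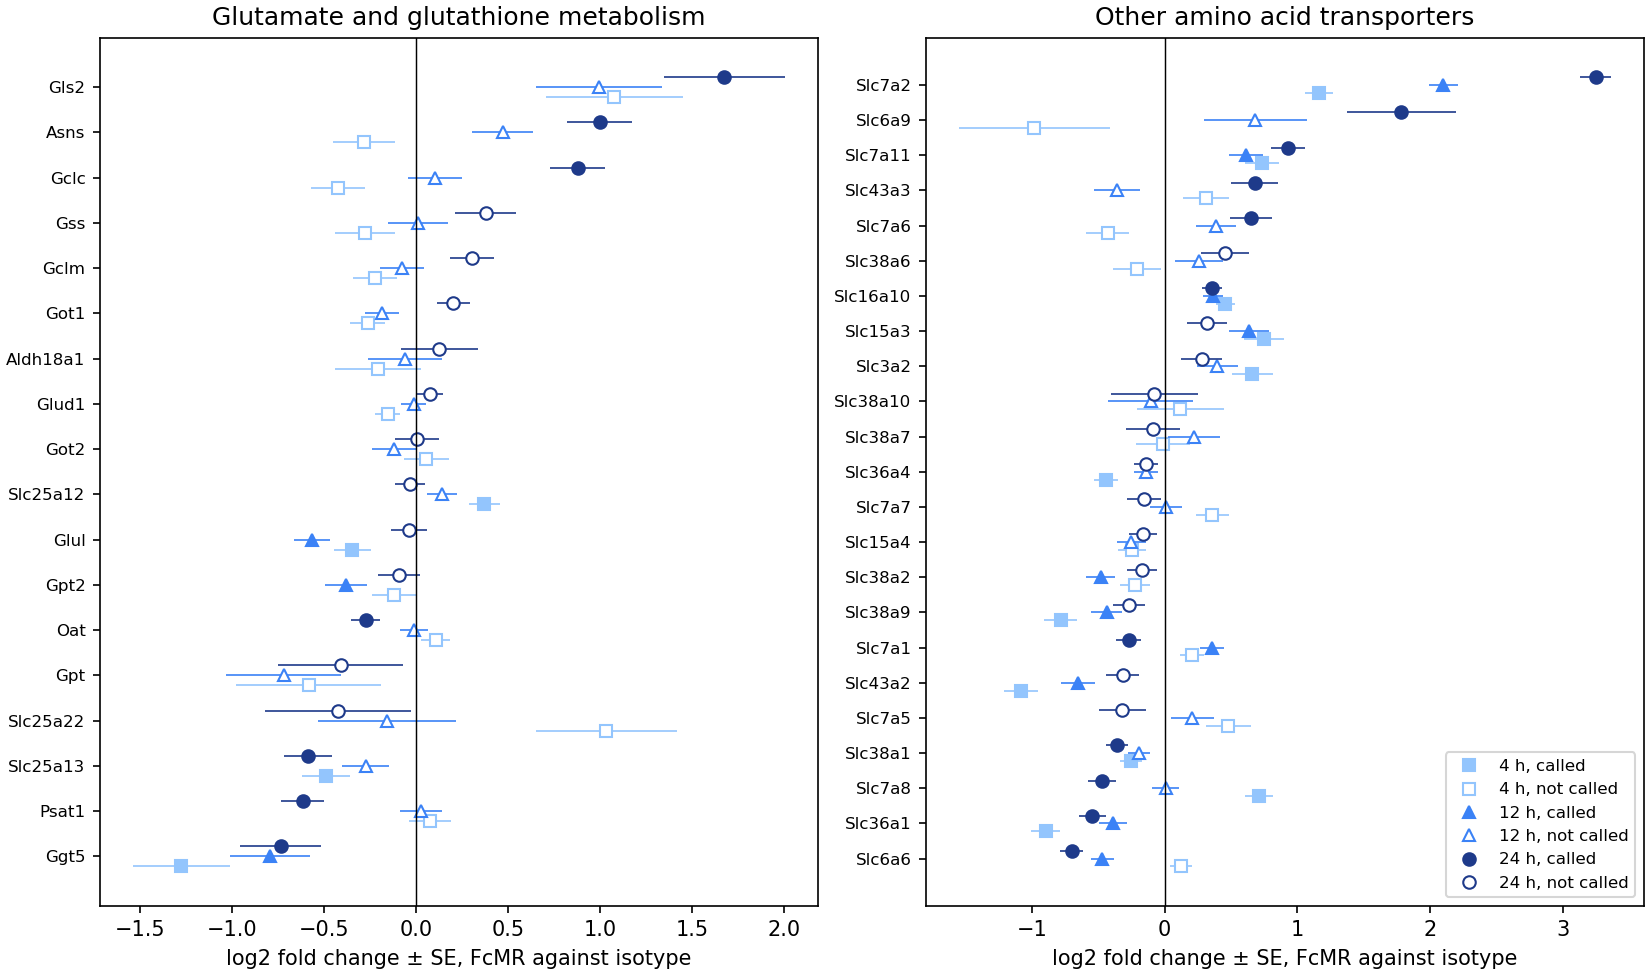
Log2 difference (± SE) between FcMR and isotype at 4, 12 and 24 h for 18 genes of glutamate and glutathione metabolism and 23 other amino acid transporters, ordered by the 24 h value. Filled symbols passed the edgeR threshold of 0.05, and the highest value at 24 h is that of Slc7a2 (3.25).

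Receptors for glutamate and its vesicular carriers were nearly absent. Of 22 such genes 15 were in the table and 2 were tested, Gria3 and Grm6, both under 2 CPM on average in each FcMR and isotype group. Neither was called at any time by edgeR, and 0 of them had an unadjusted p below 0.05.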

How the data were processed

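Gene-level tables of 21 RNA-seq libraries were used, made with a TruSeq v2 kit and 75 bp single-end reads per the labels. CASAVA 1.8.2, kallisto 0.44.0, DESeq2 and the builds mm10 and GRCm38 are named in the submitters' processing notes, without their roles. The raw table deposited by the authors holds estimated counts, already whole numbers; plain counts had been planned for, and the planned test was kept. Their second deposited table holds a normalized signal, equal to these counts scaled by a factor that differs between genes as well as libraries, a form that correction for transcript length takes. That reading rests on the values. Counting by strand is not given in the sources used here.

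Genes were filtered with edgeR's filterByExpr (minimum count 10), scaled with TMM and fitted with the quasi-likelihood model in edgeR 4.0.16 (R 4.3.3), with 1 coefficient per group over all 21 libraries. P-values were adjusted by Benjamini-Hochberg over 13468 genes. The procedure was tested on simulated data with the same spread for every gene and no GC effect, a simpler setting than these libraries. DESeq2 1.42.0 and limma 3.58.1 (on log2 of the normalized value + 1) were alternatives, beside other size factors, no filter, a GC correction, a replicate block, only the groups compared and leaving out each library. The 95% intervals of log2 differences come from the SE and the total degrees of freedom of the fit (residual plus those borrowed across genes). Floors (3 counts) cover counting error only. Symbols and positions are those of GENCODE M21, matched for 23187 genes. Replicate pairs had r of 0.92 to 0.987 and were all counted as separate libraries.

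The members and gene lists were chosen with earlier results of these data known. Named genes are the members, the 3 highest and 3 lowest called at 24 h in each list, 5 genes by name, and the 5 (Slc1a2) or 3 genes of highest Pearson r among genes averaging 1 or more on the log2 CPM scale. 1 gene of the metabolism list is not reported here. A protein sequence of any member and the promoter of Slc1a5 were not used here.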

Additional observations from a re-analysis of the deposited data

How the results depend on the processing

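No value of Slc1a2, Slc1a4 or Slc1a5 changed direction under the alternatives run. The authors' normalized table moved 7 of the 9 Slc1a2 differences, to 3.10 and 5.52 between FcMR and isotype at 4 and 24 h, 1.74 and 2.77 for isotype against untreated at 4 and 12 h, and 4.83, 6.74 and 6.35 for FcMR against untreated at 4, 12 and 24 h. For Slc1a5 between FcMR and isotype, the GC correction gave -0.41 at 4 h and -0.25 at 24 h, both called, and isotype against untreated at 12 h was called at -0.29. With only the groups compared, Slc1a5 with isotype against untreated was -0.53 at 4 h (call lost) and -0.26 at 12 h (call gained), and on the authors' table -0.62 at 4 h and -0.49 at 24 h (calls lost). Leaving out single libraries gave 0.31 to 0.63 for Slc1a4 between FcMR and isotype at 24 h, -0.47 to -0.16 for Slc1a5 at 4 h, and -0.70 to -0.40 for Slc1a5 with isotype against untreated at 4 h. The cause of these shifts was not tested.

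The replicate numbers did not pair the libraries: the mean correlation of same-numbered deviations was -0.071, 0.106 and 0.014 between FcMR and isotype at 4, 12 and 24 h. With the replicate block no member's call changed (Slc1a5 between FcMR and isotype -0.34, -0.64 and -0.36; Slc1a4 0.20, -0.35 and 0.43; Slc1a2 2.84, 3.96 and 7.25). With the block and the GC correction together, Slc1a5 was -0.41 at 4 h and -0.25 at 24 h, and -0.30 for isotype against untreated at 12 h.

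Counts in the glutamate list were small and moved with the setting. At 4 h, 3 were called higher with RLE size factors, the block, the GC correction or without FcMR 12 h replicate 1 and isotype 4 h replicate 3 (left out together after seeing the data), 2 with DESeq2 or the authors' table and 0 with only the groups compared. Called lower at 4 h were 1 without the filter or on the authors' table, 6 with the GC correction and 0 with only the groups compared. At 12 h, 1 or 2 were higher under RLE, the block, the GC correction, DESeq2 or without those 2 libraries, and 1 was lower on the authors' table. At 24 h, 6 were higher with the GC correction and 2 lower with only the groups compared. Among the transporters, 3 were lower at 4 h without the filter or with only the groups compared, and 9 higher at 12 h with the GC correction. Leaving out single libraries gave, in the glutamate list, 1 to 3 higher (3 without isotype 4 h replicate 3) and 1 to 3 lower (1 without FcMR 4 h replicate 2 or 3) at 4 h. It gave 0 to 1 higher (1 without FcMR replicate 1) and 1 to 3 lower (1 without FcMR replicate 3 or isotype replicate 1 or 3) at 12 h, and 2 to 4 lower (2 without replicate 2 of either arm) at 24 h. In the transporter list 3 to 5 were lower at 12 h (3 without isotype replicate 1).

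Over all genes, 2390, 2169 and 2813 were called at 4, 12 and 24 h and 1484 in the test between times. The GC correction gave 3750 at 4 h, 3277 at 12 h, 4142 at 24 h and 2985 between times (3906, 3457, 4232 and 3212 with the block). Only the groups compared gave 868 at 4 h, and no filter gave 925 between times. Without FcMR 4 h replicate 2 there were 1589 at 4 h and 973 between times, without isotype 4 h replicate 3 2294 between times, and without the 2 libraries named above 3898 and 2616.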
